A study of Mus musculus with 14 samples.

Results

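The genes described here encode the accessory subunits of the sodium pump: the beta subunits Atp1b1, Atp1b2 and Atp1b3, and the FXYD regulators Fxyd1, Fxyd2, Fxyd4 and Fxyd5. They were chosen by gene symbol as members of these families, not by any measured value. The kidney count table lists 7 of the 7 among its 20203 genes. The liver count table lists 6 among its 19660 genes and holds no row for Fxyd4, so the liver level of Fxyd4 was not analysed here. Both tables together name 22263 genes.

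The sodium pump, or Na,K-ATPase, exports sodium and imports potassium at the cost of ATP. Its catalytic alpha subunit needs a glycosylated beta subunit to leave the endoplasmic reticulum and reach the plasma membrane. FXYD proteins are small single-pass membrane proteins that bind the pump and tune its affinity for sodium and potassium or its turnover. In the nephron the pump sits in the basolateral membrane and drives sodium reabsorption, whereas in hepatocytes its gradient powers sodium-coupled uptake of bile acids and amino acids.

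RNA was sequenced from whole liver and whole kidney of male mice aged 12 weeks. Every animal, controls included, carried a transgene of the human angiotensinogen gene with the -6A promoter haplotype, labelled Hap -6A, so no group lacks it. One group per tissue had a normal diet (called basal in the titles) and the other was given high salt. The salt dose, its duration, the mouse strain and the span of the transgene are not given in the sources used here. Liver had 4 libraries per diet and kidney 3 per diet. Normal diet libraries are called N1 to N4 in liver and N1 to N3 in kidney, and high salt kidney libraries HS1 to HS3. Liver libraries of the high salt group are called HS5 to HS8 after their columns, and these numbers cannot be tied to single titles. No label says that each library is a separate animal, so p-values measure only the spread between these libraries, which may be technical.

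Totals were 16046069 to 22004915 gene counts per kidney library and 37267771 to 51487386 per liver library. The summed level of 5 hepatocyte markers was 51653 to 106645 counts per 1000000 counts (CPM) in liver and 164 to 227 CPM in kidney. The summed level of 6 proximal tubule markers was 1966 to 3365 CPM in kidney and 0.476 to 8.07 CPM in liver, so both tissue labels matched their markers. Some libraries stood apart. The first principal component of kidney held 53.9% of the variance and set N1, HS1 and HS3 against N2, N3 and HS2, across the diets. Liver N1 and N2 had 2.30% and 2.06% of their counts from the mitochondrial genome, against 11.3% to 29.6% in the other liver libraries. Liver HS5 and HS6 were closer to each other (chi-square of 1.65 per gene) than any other pair of liver libraries on the same diet (10.4 to 64.0).

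Positions are on the GRCm38 assembly, with starts as the deposited tables and GENCODE M21 give them and ends from GENCODE M21. Atp1b1 lies on chromosome 1 from 164437109 to 164458355, Atp1b2 on chromosome 11 from 69599736 to 69605942 and Atp1b3 on chromosome 9 from 96332655 to 96364442. Fxyd2 lies on chromosome 9 from 45399669 to 45410278 and Fxyd4 on chromosome 6 from 117933559 to 117937692. Fxyd1 and Fxyd5 are near neighbours on chromosome 7, from 31051678 to 31057199 and from 31032722 to 31042481, with Fxyd7 between them. Fxyd2 is on the forward strand and the other members are on the reverse strand. Fxyd7 lies 210 bases from Fxyd1 and 31 bases from Fxyd5, and the tail of Atp1b1 overlaps Nme7 on the opposite strand. Whether counting used strand is not given in the sources used here, so reads from overlapping ends cannot be assigned with certainty.

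RefSeq start sites (GRCm38.p6) were on hand for 5 of the 7 members. The 250 bases before the start are shown for Atp1b1 and Fxyd1, the beta subunit and the FXYD member with the highest liver levels, because these 2 genes differed between the tissues in opposite directions. The Atp1b1 window is chr1:164458356-164458605 and the Fxyd1 window chr7:31054854-31055103, both on the reverse strand and written 5′ to 3′. The Atp1b1 window begins just outside the span of the gene given above, whereas the Fxyd1 window lies inside the span of Fxyd1, in introns of longer transcripts of the gene. Capitals mark matches to 5 motifs searched on both strands. They are the TATA box written as TATAAA or as its variant TATATA, the CCAAT box, the Sp1 core GGGCGG, and the corticosteroid receptor half-site AGAACA.
Atp1b1: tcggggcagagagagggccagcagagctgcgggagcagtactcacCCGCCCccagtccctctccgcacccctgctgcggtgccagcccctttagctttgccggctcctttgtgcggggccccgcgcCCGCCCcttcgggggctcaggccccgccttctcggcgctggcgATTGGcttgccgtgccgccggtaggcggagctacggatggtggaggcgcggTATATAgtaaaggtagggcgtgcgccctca
Fxyd1: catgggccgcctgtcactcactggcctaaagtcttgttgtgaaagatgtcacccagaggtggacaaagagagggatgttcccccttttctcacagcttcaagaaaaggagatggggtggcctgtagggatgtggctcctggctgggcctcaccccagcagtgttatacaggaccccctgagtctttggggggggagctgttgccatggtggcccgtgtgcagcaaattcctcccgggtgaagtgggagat

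The Atp1b1 window holds TATATA 30 bases before the start, CCAAT on the opposite strand at 81 bases, and GGGCGG on the opposite strand at 124 and 205 bases. The Fxyd1 window holds none of the 5 motifs, which says only that these letters are not in this window. The 2 windows also differ in base composition, with 70.4% G and C in Atp1b1 and 57.2% in Fxyd1, beside a median of 52.4% over all 32851 RefSeq windows of this length. The Fxyd4 window, 58% G and C, holds GGGCGG at 48 bases. Over all windows, the letters TATATA were found in 5.25%, those of TATAAA in 12.4%, the CCAAT box in 33.8%, the Sp1 core GGGCGG in 32.7% and the half-site AGAACA in 16.1%. These matches are descriptions of sequence, and no binding or methylation was measured here.

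Kidney and liver held different sets of accessory subunit transcripts. In kidney Atp1b1, the common epithelial beta subunit, and Fxyd2, the gamma subunit of renal pumps, made up nearly all of the measured beta and FXYD transcript. In liver Fxyd1 (phospholemman, best known from heart and muscle) was the leading FXYD transcript in place of Fxyd2, and Atp1b3 held a larger share of the beta transcript. On the normal diet, 4 of the 6 members tested were higher in kidney, 1 was higher in liver and 1 was not called, at an edgeR adjusted p under 0.05. Over all 16633 genes tested, 32.2% were called higher in kidney and 32.9% higher in liver, so a call between these tissues is common. The plot of CPM by library shows every value.

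**Figure D1:**
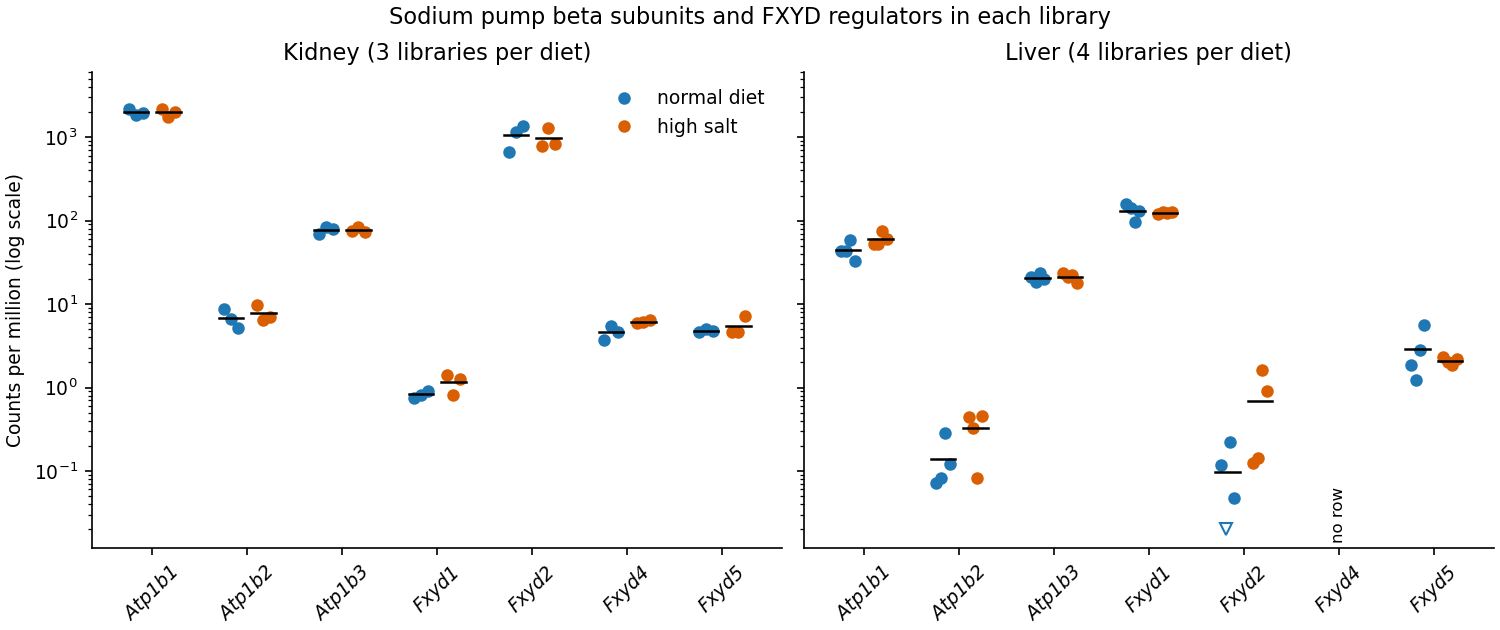
CPM of each of the 7 members in each kidney library (left) and liver library (right) on a log scale, with blue points for the normal diet, orange points for high salt and a black bar at the group mean. Fxyd2 is near 1000 CPM in kidney and under 2 CPM in liver, and Fxyd1 has the opposite pattern. The open triangle marks the liver library with 0 counts of Fxyd2, drawn at the foot of the axis, and Fxyd4 has no row in the liver table.

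Atp1b1 measured 2165.9, 1857 and 1976 CPM in kidney N1, N2 and N3, and 43.03, 43.8, 58.5 and 33.2 CPM in liver N1 to N4. Every kidney library was far above every liver library. The difference was 4.94 on the log2 scale (SE 0.28, edgeR quasi-likelihood, adjusted p = 9.26e-10), a 30.8-fold higher fitted level in kidney. The count tables of the tissues were quantified separately and were scaled together only in this fit, whereas CPM values are scaled within a tissue.

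Atp1b3, a widely expressed beta subunit, differed less. It measured 69.8, 84.9 and 79.5 CPM in kidney and 21.0, 18.3, 23.3 and 20.3 CPM in liver on the normal diet. The groups did not overlap and the difference was 1.37 (log2, SE 0.16, edgeR adjusted p = 2.18e-06). Atp1b2, which is best known from brain, was scarce in both tissues. It had 8.69, 6.62 and 5.23 CPM in kidney and 0.071 to 0.283 CPM in liver, where these levels rest on 3 to 9 counts per library. Its difference was 5.10 (log2, SE 0.51, edgeR adjusted p = 4.41e-07).

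Fxyd2 showed the largest difference among the members. It measured 664, 1151 and 1352 CPM in kidney, while liver N1 to N4 held 5, 0, 7 and 2 counts. A count of 0 in liver N2 is only known to lie under 3 counts. The fitted difference was 12.88 (log2, SE 0.97, edgeR adjusted p = 2.34e-08), and its size rests on the few liver counts.

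Fxyd1 went the other way. It measured 157, 141, 97.1 and 130 CPM in liver N1 to N4 and 0.749, 0.820 and 0.920 CPM in kidney. The difference was -7.85 (log2, kidney minus liver, SE 0.30, edgeR adjusted p = 3.77e-11), a 229.9-fold lower fitted level in kidney. In kidney these levels rest on 14 to 19 counts per library.

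Fxyd5 (dysadherin, which also affects cell adhesion) was the member tested that was not called between the tissues. Kidney held 4.60, 4.98 and 4.74 CPM and liver 1.85, 1.23, 2.80 and 5.67 CPM on the normal diet. Liver N1 to N3 lay below every normal diet kidney library and liver N4 above every one, so the groups overlapped. The difference was 0.21 (log2, SE 0.37, edgeR adjusted p = 0.639). Without liver N4 it was 0.73 (adjusted p = 0.0364), and without liver N2 it was -0.036. Fxyd4 (corticosteroid hormone-induced factor, known from the collecting duct) measured 3.75, 5.39 and 4.65 CPM in kidney.

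Per kilobase of principal transcript, the kidney order on the normal diet was Fxyd2 at 1670 ± 559 CPM per kb, Atp1b1 at 775 ± 60.3, Atp1b3 at 39.2 ± 3.84, Fxyd4 at 5.38 ± 0.961, Fxyd5 at 5.05 ± 0.204, Atp1b2 at 2.41 ± 0.614 and Fxyd1 at 1.54 ± 0.159 (SD, n = 3 each). Fxyd4 and Fxyd5 differed by less than their spread. The order of Fxyd2 and Atp1b1 turns with the length used: per kilobase of all exons joined, the beta subunits summed to 683 ± 47.6 CPM per kb and the FXYD members to 267 ± 88.6 (SD, n = 3), and in CPM with no length Atp1b1 was above Fxyd2 in every kidney library. In liver the order was Fxyd1 at 244 ± 46.8, Atp1b1 at 17.3 ± 4.05, Atp1b3 at 10.4 ± 1.05, Fxyd5 at 3.06 ± 2.08, Fxyd2 at 0.153 ± 0.151 and Atp1b2 at 0.0489 ± 0.0346 (SD, n = 4 each). Fxyd2 and Atp1b2 were not separated from each other in liver.

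**Figure D2:**
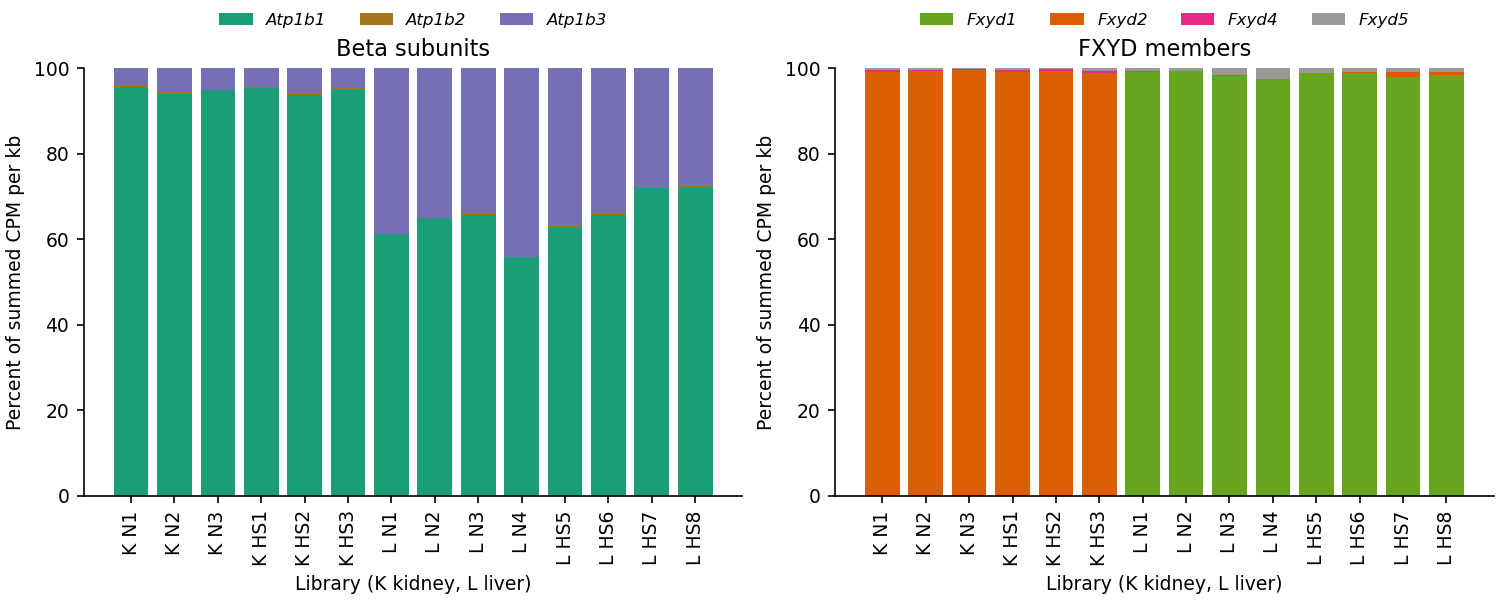
Each bar is 1 library, with the summed CPM per kilobase split by gene into percent for the beta subunits (left) and the FXYD members (right). Atp1b1 takes 94% to 96% of the beta transcript in kidney and 56% to 72% in liver, and the leading FXYD gene changes from Fxyd2 to Fxyd1.

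Atp1b1 supplied 94.9% ± 0.769 of the beta transcript per length in kidney and 61.9% ± 4.54 in liver on the normal diet (SD, n = 3 and 4). Atp1b3 supplied 4.83% ± 0.795 and 37.9% ± 4.56. Fxyd2 supplied 99.2% ± 0.222 of the FXYD transcript of these members in kidney, and Fxyd1 supplied 98.6% ± 0.918 in liver. The share of Atp1b1 did not overlap between the tissues. With 3 libraries against 4, the exact two-sided permutation test gave p = 0.0571, the smallest it allows, and 0.0714 after adjustment over 10 such quantities.

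Per length, the FXYD members together reached 2.09 ± 0.774 times the level of the beta subunits in kidney and 9.22 ± 2.62 times in liver on the normal diet (SD, n = 3 and 4), with no overlap between the tissues (exact two-sided permutation p = 0.0571, the smallest this design allows). For high salt the ratios were 1.97 ± 0.793 and 6.996 ± 0.824. Their size depends on the length used: with the union of all exons they were 0.397 ± 0.146 in kidney and 2.71 ± 0.772 in liver for the normal diet, still lower in kidney. Transcript ratios per length are not subunit ratios in the membrane.

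Among other genes of the pump and FXYD families, Atp4a (2.65, SE 0.40, edgeR adjusted p = 3.84e-05) and Fxyd6 (1.77, SE 0.43, adjusted p = 0.00222) were higher in kidney, and Fxyd3 was higher in liver (-1.74, SE 0.65, adjusted p = 0.0294), as log2 differences of kidney minus liver. Fxyd3 was scarce in both tissues, at 0 to 0.387 CPM in normal diet kidney and 0.436 to 0.601 CPM in normal diet liver. On high salt its tissues overlapped, at 0.313 to 0.567 CPM in kidney and 0.213 to 0.707 CPM in liver. All 6 apical sodium entry genes tested (of 10 listed) and all 3 basolateral potassium and chloride channel genes tested (of 6 listed) were higher in kidney. Among 10 hormone receptor and kinase genes tested, 6 were higher in kidney, 1 was higher in liver and 3 were not called. The lists were chosen with results of these libraries known.

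In kidney, high salt changed none of the 7 members past the threshold. The share called over all 15847 kidney genes was 0%, with 318 genes at an unadjusted p under 0.05 by edgeR and 11 called by DESeq2. The members' log2 changes had a median of 0.17, beside -0.025 over all genes tested, with 4 members above and 3 below 0. No member had an unadjusted p under 0.05. Diets did not overlap for 1 member, Fxyd4, while 6.92% of all kidney genes did not overlap. The plot of fold changes shows the estimates with their errors.

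**Figure D3:**
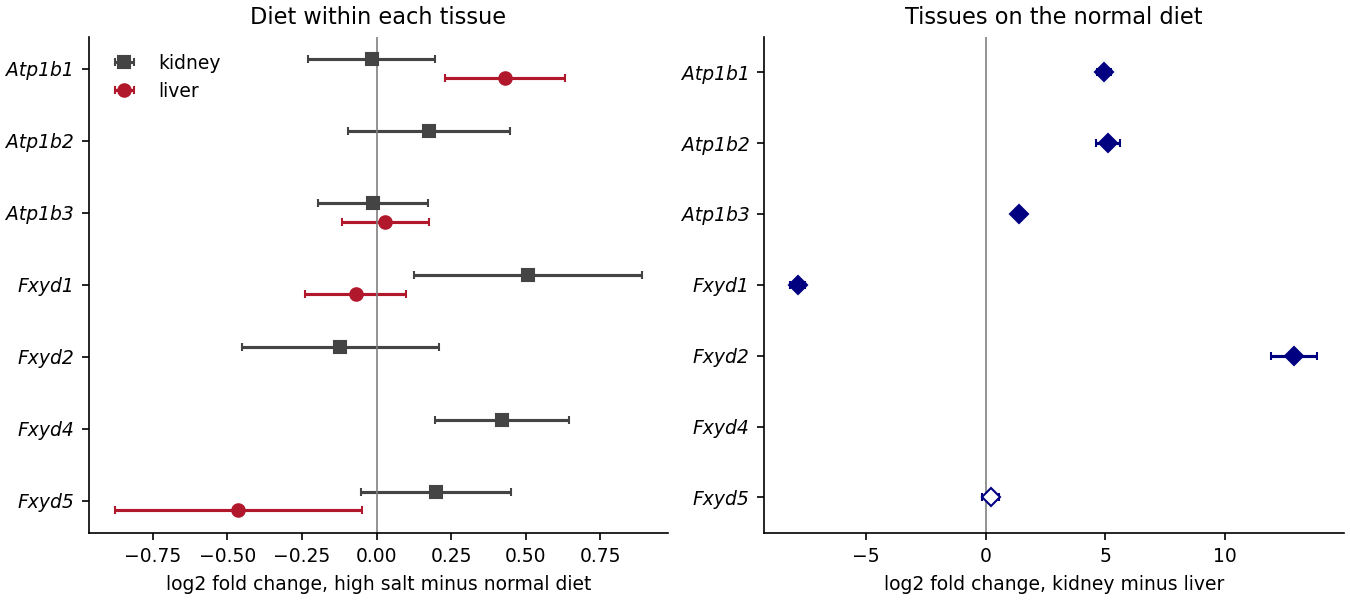
Left, log2 fold change of high salt minus normal diet for each member in kidney (grey squares) and liver (red circles), with bars of 1 SE from edgeR. Right, log2 fold change of kidney minus liver on the normal diet, filled where called and open for Fxyd5; diet estimates lie within 0.51 of 0, and tissue estimates run from -7.85 to 12.88. Members without a symbol were not tested.

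The major kidney pair, Atp1b1 and Fxyd2, was not called between the diets. Atp1b1 measured 2188, 1747 and 1998 CPM in HS1, HS2 and HS3, against 2165.9, 1857 and 1976 CPM on the normal diet. These values interleave, and the change was -0.016 (log2, SE 0.21, edgeR adjusted p = 0.9996). Fxyd2 measured 777, 1302 and 832 CPM on high salt, inside the range of 664 to 1352 CPM on the normal diet. Its change was -0.12 with a wider error (SE 0.33, edgeR adjusted p = 0.9996). The log2 ratio of Fxyd2 to Atp1b1 within a library moved by -0.079 (exact two-sided permutation p = 1, n = 3 each, where 3 against 3 cannot go below 0.1).

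Fxyd4 was the member whose diets separated. It measured 3.75, 5.39 and 4.65 CPM in N1 to N3 and 5.94, 6.11 and 6.36 CPM in HS1 to HS3, from 75 to 140 counts per library. All 3 high salt libraries lay above all 3 normal diet libraries. Means were 4.59 ± 0.822 CPM for normal diet and 6.14 ± 0.213 CPM for high salt (SD, n = 3 each), and the change was 0.42 (log2, SE 0.23, edgeR unadjusted p = 0.0989, adjusted p = 0.9996), which was not called. Relative to Atp1b1 of the same library it was 0.45 higher (log2; exact two-sided permutation p = 0.2, adjusted 0.8 over 4 ratios). The summed level of 6 principal cell markers, the cells in which Fxyd4 is known, was 176, 136 and 116 CPM in N1 to N3 and 183, 130 and 156 CPM in HS1 to HS3. These sums overlapped between the diets. Of the marker lists examined, 2 did separate by diet, both lower on high salt. The 4 distal convoluted tubule markers summed to 652 to 704 CPM in N1 to N3 and 438 to 570.4 CPM in HS1 to HS3. Within that list Calb1 and Pvalb separated and Trpm6 overlapped. Slc12a3 also overlapped, at 269, 250 and 240 CPM in N1 to N3 and 272, 254 and 152 CPM in HS1 to HS3. The 4 cardiac muscle markers summed to 2.64 to 3.53 CPM in N1 to N3 and 0.409 to 1.01 CPM in HS1 to HS3. Of these, Myh6, Tnnt2 and Actc1 separated and Myl7 overlapped. The part of any of these lists in the Fxyd4 values was not tested. In whole tissue, more cells of a type and more RNA per cell cannot be told apart.

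The other kidney members moved within their spread. Atp1b3 ranged over 69.8 to 84.9 CPM in normal diet libraries and 73.4 to 83.7 CPM in high salt libraries (log2 change -0.012, SE 0.19). Atp1b2 had 5.23 to 8.69 CPM and 6.36 to 9.69 CPM (0.17, SE 0.27). Both overlapped between the diets. Fxyd1 had 1.43, 0.819 and 1.27 CPM in HS1 to HS3, with HS2 inside the normal diet range of 0.749 to 0.920 CPM (0.51, SE 0.38). Fxyd5 had 4.60 to 4.98 CPM in normal diet libraries and 4.60, 4.66 and 7.14 CPM in HS1 to HS3. Its change of 0.20 (SE 0.25) rested on HS3, and without HS3 it was -0.043.

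The kidney genes of sodium handling listed beside the members gave no calls either: 0 of 4 other pump and FXYD genes, 0 of 10 apical sodium entry genes, 0 of 6 basolateral channels and 0 of 11 hormone receptor and kinase genes tested. Atp4a, the alpha subunit of the gastric-type proton pump, was singled out after its values were seen. Its normal diet mean was 9.64 ± 0.649 CPM and its high salt mean 5.59 ± 1.10 CPM (SD, n = 3 each), with no overlap and a change of -0.79 (log2, SE 0.22, edgeR unadjusted p = 0.00694, adjusted p = 0.9996).

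Within kidney, Fxyd2 varied far more between libraries than Atp1b1. Its highest library held 2.04 times the CPM of its lowest, against 1.25 times for Atp1b1 and 1.22 times for Atp1b3. The variation did not follow the diet: N1, HS1 and HS3 were the 3 lowest for Fxyd2 and the 3 highest for Atp1b1. As a deviation from the mean log2 CPM of the 6 libraries, Fxyd2 was -0.56, 0.24 and 0.47 in N1, N2 and N3 and -0.33, 0.41 and -0.23 in HS1, HS2 and HS3. Atp1b1 was 0.13, -0.094 and -0.0047, then 0.14, -0.18 and 0.011.

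The same order appears in the balance of short and long genes. This balance is the median log2 deviation of the 1163 shortest genes minus that of the 1163 longest, among 11821 kidney genes with a mean of at least 50 counts. It was -1.16, 0.49 and 0.60 in N1, N2 and N3 and -0.42, 0.50 and -0.030 in HS1, HS2 and HS3. Fxyd2 is a short transcript of 632 bases, while Atp1b1 has 2580 bases and Atp1b3 has 1994. With the balance as a covariate the diet change of Fxyd2 stayed at -0.12 while its SE went from 0.33 to 0.14. This fit was added after the data were seen, and Fxyd2 is itself among the 1163 shortest genes of the balance. Summed marker levels split the libraries the same way for several lists, though single markers did not all follow their sum. Sums were higher in N1, HS1 and HS3 for proximal tubule, thick ascending limb, principal cell, inner medulla and cholangiocyte lists. They were lower there for intercalated cell, podocyte and stellate cell lists. The intercalated cell split rests on Atp6v1g3, at 41.1, 49.4 and 36.8 CPM there and 99.7, 89.9 and 73.0 CPM in N2, N3 and HS2. Slc4a1, Slc26a4 and Foxi1 of that list were higher in N1, HS1 and HS3, as was Podxl of the podocyte list. Cldn16 of the thick ascending limb list was lower there, and Aqp4 of the inner medulla list was lowest in N1. The cholangiocyte sums rest mainly on Spp1. The 6 proximal tubule markers summed to 3365, 2996 and 2772 CPM in N1, HS1 and HS3 and to 2060, 1966 and 2292 CPM in N2, N3 and HS2. The proximal tubule sums rest mainly on Lrp2 and Slc34a1, and 4 of the 6 markers were higher in each of N1, HS1 and HS3 than in each of the other 3. The remaining 2 did not split this way: Slc5a12 measured 72.2, 80.9 and 54.7 CPM in N1, HS1 and HS3 and 88.9, 73.2 and 80.6 CPM in N2, N3 and HS2, and Slc5a2 measured 53.5, 63.8 and 52.5 CPM and 73.03, 72.3 and 58.4 CPM. The part of the marker levels in the Fxyd2 values was not tested.

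**Figure D4:**
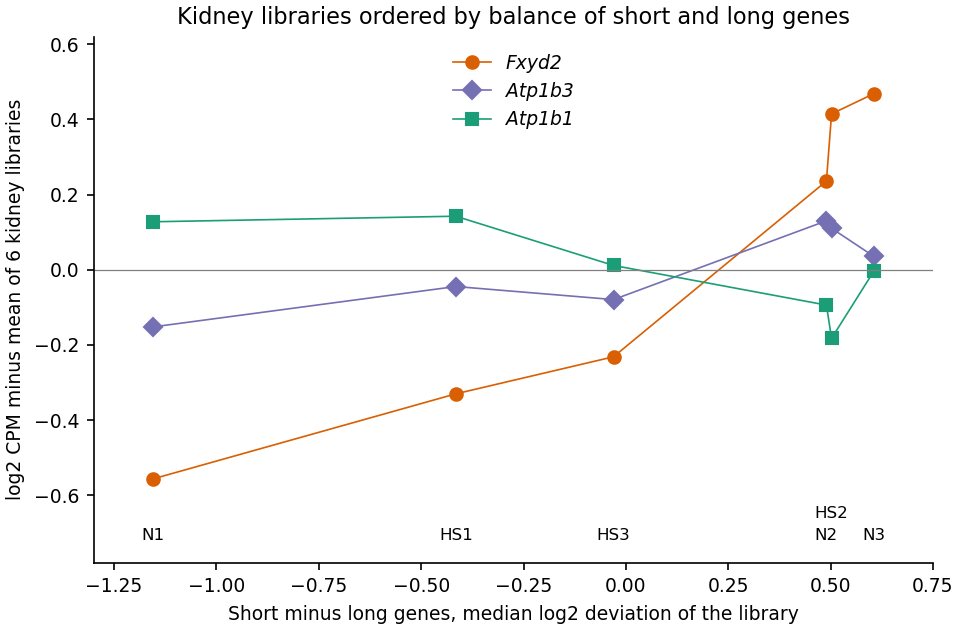
For each of the 6 kidney libraries (named along the foot), the deviation of log2 CPM from the kidney mean for Fxyd2, Atp1b3 and Atp1b1, against the median deviation of short genes minus that of long genes. Fxyd2 runs from -0.56 in N1 to 0.47 in N3 as the balance goes from -1.16 to 0.60, and Atp1b1 stays between -0.18 and 0.14.

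Among 11820 other genes of the kidney with a mean of at least 50 counts, those most like Atp1b1 over the 6 libraries were Ogfod1, Clcn6 and Klf7 (Pearson r of 0.997, 0.996 and 0.994 in log2 CPM). Those most like Fxyd2 were Prpf38a, Sun3 and Ociad1 (Pearson r of 0.998, 0.998 and 0.997). These values describe 6 libraries that share the order above.

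In liver, 4 of the 7 members passed the filter on low counts and 0 of them were called on high salt. Over all 15130 liver genes 1.00% were called (152 genes, 90 higher and 62 lower), and 3205 had an unadjusted p under 0.05. DESeq2 called 1122 liver genes. The members tested had a median log2 change of -0.021, beside -0.023 over all genes. No member listed in liver separated by diet, whereas 12.5% of liver genes did.

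Among the 4 members that passed the filter, Atp1b1 had the largest liver difference for its error. It measured 43.03, 43.8, 58.5 and 33.2 CPM in N1 to N4 and 51.98, 52.8, 75.4 and 60.4 CPM in HS5 to HS8. N3 lay above HS5 and HS6, so the groups overlapped. Means were 44.6 ± 10.4 CPM for normal diet and 60.1 ± 10.8 CPM for high salt (SD, n = 4 each), and the change was 0.43 (log2, SE 0.20, edgeR unadjusted p = 0.0565, adjusted p = 0.248), which was not called. Without HS7 and HS8 together the change was 0.23 (SE 0.23, edgeR adjusted p = 0.632), without N1 and N2 it was 0.39 (adjusted p = 0.515), and with HS5 and HS6 summed as 1 library it was 0.49 (adjusted p = 0.387). Leaving out 1 library at a time gave 0.29 to 0.58, with 0.29 without HS7 and 0.58 without N3. The edgeR adjusted p of these fits ran from 0.0949 to 0.453. The summed level of 5 hepatocyte markers was 51653 to 76242 CPM in normal diet libraries and 89304 to 106645 CPM in high salt libraries. This sum was lowest in N4 and highest in HS7, as Atp1b1 was. It was mostly Alb, at 32441 to 50637 CPM on the normal diet and 67824 to 85226 CPM on high salt. Serpina1c of the same list went the other way, from 7776 to 11893 CPM on the normal diet and 5326 to 6950 CPM on high salt. Apoa1, Ttr and Apob overlapped between the diets. HS7 and HS8, the libraries highest for Atp1b1, also had the highest sums of 6 proximal tubule markers, at 8.07 and 4.54 CPM. In the other liver libraries these sums were 0.476 to 1.51 CPM. Atp1b1 itself measured 1747 to 2188 CPM in kidney. The part of the hepatocyte and tubule markers in the liver Atp1b1 values was not tested.

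Atp1b3 did not move with Atp1b1 in liver. It measured 21.0, 18.3, 23.3 and 20.3 CPM in N1 to N4 and 23.3, 21.0, 22.5 and 17.7 CPM in HS5 to HS8, a change of 0.029 (log2, SE 0.15, edgeR adjusted p = 0.927). The share of Atp1b1 in the liver beta transcript per length was 61.9% ± 4.54 in the normal diet group and 68.2% ± 4.64 in the high salt group (SD, n = 4 each). The higher mean rested on HS7 and HS8, at 72.1% and 72.2%. HS5 and HS6, at 62.9% and 65.7%, lay inside the normal diet range of 55.8% to 65.8%. The log2 ratio of Atp1b3 to Atp1b1 moved by -0.42 (exact two-sided permutation p = 0.114, adjusted 0.171 over 3 ratios, n = 4 each). Atp1b2 held 0.071, 0.082, 0.283 and 0.120 CPM in N1 to N4 and 0.444, 0.332, 0.083 and 0.459 CPM in HS5 to HS8, from 3 to 26 counts. HS5, HS6 and HS8 were above all normal diet libraries and HS7 was among the lowest. With no filter its change was 1.27 (log2, SE 0.61, edgeR adjusted p = 0.303).

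Fxyd1, the dominant liver FXYD gene, was not called between the diets. It measured 157, 141, 97.1 and 130 CPM in N1 to N4 and 121, 126.2, 124 and 129 CPM in HS5 to HS8, a change of -0.071 (log2, SE 0.17, edgeR adjusted p = 0.835). The normal diet libraries spread over 97.1 to 157 CPM and enclosed the high salt values. N1 and N2 were the highest, and their balance of short and long genes was 0.99 and 1.02. In the other liver libraries the balance was -0.60 to -0.012. With the balance as a covariate, in a fit added after the data were seen, the Fxyd1 change was 0.22 and was not called. Fxyd5 measured 1.85, 1.23, 2.80 and 5.67 CPM in N1 to N4 and 2.31, 2.03, 1.87 and 2.17 CPM in HS5 to HS8. Its change of -0.46 (log2, SE 0.41, edgeR adjusted p = 0.531) rested on N4, and without N4 it was 0.090. Without N1 and N2 it was -1.01 (SE 0.28, edgeR unadjusted p = 0.00731, adjusted p = 0.157), and with the balance of short and long genes as a covariate it was -1.21 (adjusted p = 0.232). In N4 the 6 leukocyte markers also summed highest, to 54.5 CPM against 19.5 to 35.8 CPM in the other liver libraries. Most of the N4 sum was C1qa, at 37.3 CPM. C1qa and Cd68 were highest in N4, whereas Ptprc and Adgre1 were highest in N3, Cd3e in HS8 and Cd79a in N1. The part of these markers in the Fxyd5 value was not tested.

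Fxyd2 is a renal gene with a few counts in liver, and its high salt values came from 2 libraries. HS7 held 78 counts (1.62 CPM) and HS8 held 51 (0.901 CPM), while HS5 and HS6 held 7 each and N1 to N4 held 5, 0, 7 and 2. The gene did not pass the filter on low counts. With no filter its change was 2.85 (log2, SE 0.98, edgeR adjusted p = 0.187). Proximal tubule and thick ascending limb markers were highest in the same 2 libraries. The 6 proximal tubule markers summed to 8.07 CPM in HS7 and 4.54 CPM in HS8, against 1.26 and 1.51 CPM in HS5 and HS6 and 0.476 to 1.48 CPM on the normal diet. Slc34a1, the proximal tubule phosphate transporter, held 198 and 113 counts in HS7 and HS8 and 0 to 13 counts in the other 6 liver libraries. Umod, a defining gene of the thick ascending limb, held 68 and 27 counts there and 0 to 11 elsewhere. The thick ascending limb list summed to 2.18 CPM in HS7 and 0.548 CPM in HS8, the latter close to 0.503 CPM in N3. The distal convoluted tubule list summed to 0.790 CPM in HS7 and 0.318 CPM in HS8, the latter close to 0.300 CPM in N2. Intercalated cell markers did not have this order, with their highest sum of 3.02 CPM in N1 against 1.41 and 1.395 CPM in HS7 and HS8. Most of the N1 sum was Atp6v0d2, at 2.21 CPM. The principal cell markers Aqp2, Aqp3, Scnn1b and Scnn1g have no row in the liver table, and Avpr2 of that list was highest in N4 with 11 counts and had 0 in HS7. The part of these transcripts in the Fxyd2 values was not tested.

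**Figure D5:**
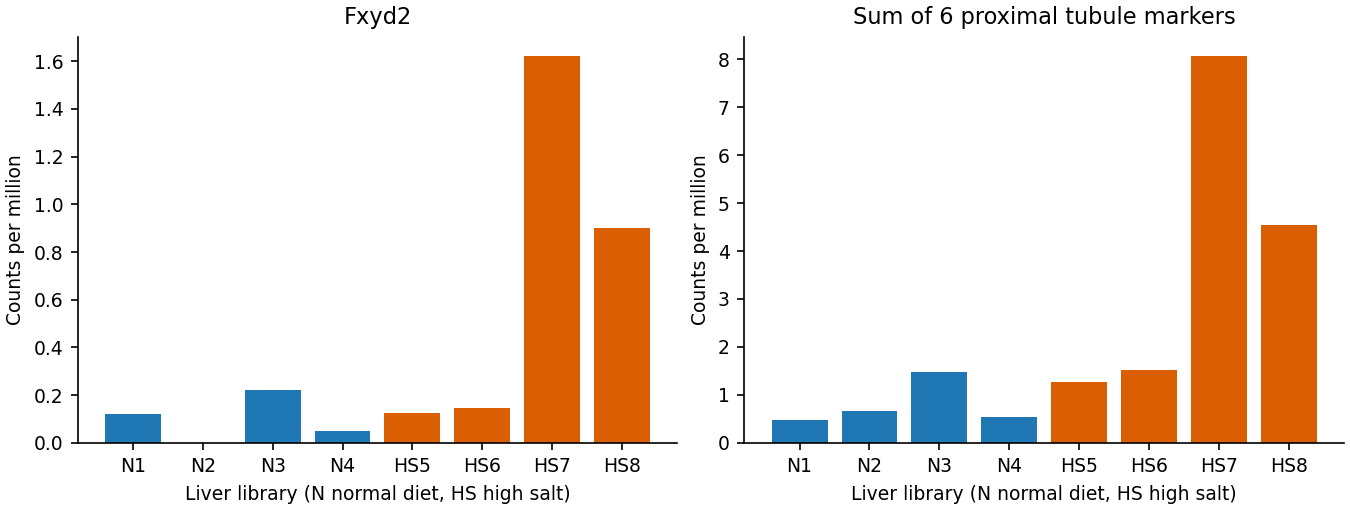
CPM of Fxyd2 (left) and the summed CPM of 6 proximal tubule markers (right) in each liver library, with blue bars for the normal diet and orange bars for high salt. HS7 and HS8 are highest in both panels, at 1.62 and 0.901 CPM for Fxyd2 and 8.07 and 4.54 CPM for the markers.

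The diet effect was then compared between the tissues in 1 fit of all 14 libraries. The share called over 16633 genes was 0%, with 1681 genes at an unadjusted p under 0.05 by edgeR and 148 called by DESeq2. None of the 6 members tested was called. Fxyd2 had the largest difference, 2.97 (log2, liver change minus kidney change, SE 1.07, edgeR unadjusted p = 0.0144, adjusted p = 0.391). Without HS7 and HS8 it was 0.67 (SE 0.88, adjusted p = 0.855). Atp1b2 differed by 1.13 (SE 0.67), Atp1b1 by 0.45 (SE 0.35), Atp1b3 by 0.049 (SE 0.22), Fxyd1 by -0.59 (SE 0.34) and Fxyd5 by -0.63 (SE 0.53), all with edgeR adjusted p from 0.569 to 0.958. The value of Fxyd5 was -0.099 without liver N4 (adjusted p = 0.926) and -1.15 without liver N1 and N2 (adjusted p = 0.419). Without liver N1 and N2, Fxyd1 differed by -0.31 and Atp1b2 by 0.66.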

How the data were processed

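Liver and kidney RNA was made into SMARTer mRNA libraries, per the labels. The authors deposited expected counts per gene, not whole for every gene, in 1 table per tissue, and a normalized signal per gene that was used in an alternative only; how it was normalized is not given in the sources used here. The submitters' processing notes name Partek 7.0, STAR 2.5.3a, DESeq2 and mm10, with no role or order. Every listed gene has a total of at least 10 counts. Of the gene names, 97.7% (kidney) and 97.8% (liver) were found in GENCODE M21.

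The members, lists, markers and tests were chosen with earlier results of these data known. All 7 members are named whatever their values. Called genes of the other pump list are named in the tissue comparison, except some that are not reported here, and the 3 genes most like Atp1b1 and Fxyd2 in kidney are named.

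Rounded expected counts were fitted in R 4.3.3 by the quasi-likelihood method of edgeR 4.0.16, with TMM scaling and the filterByExpr filter. Diet was tested within each tissue. Tissue and the difference of diet effects came from 1 fit of all groups. Benjamini-Hochberg adjusted p under 0.05 over all genes was called. CPM used TMM library sizes within a tissue. Log2 CPM had a prior count of 2, and ratios an offset of 0.5 counts. The fits were tested on simulated data. Levels per length used the mean length of principal transcripts. Exact permutation tests (scipy 1.17.1) were two-sided. Biological variation (edgeR common coefficient) was 0.30 in kidney and 0.314 in liver. The floor of 3 counts for a gene listed at 0 covers counting error only. Alternatives were other scaling, DESeq2 1.42.0, other filters, the normalized signal (pseudocount 1), the replicate block and leaving out libraries.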

Additional observations from a re-analysis of the deposited data

How the results depend on the processing

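The tissue calls of Atp1b1, Atp1b2, Atp1b3, Fxyd1 and Fxyd2 held in direction and threshold under every alternative that gave them a value (the filter of at least 10 counts in every library left no row for Atp1b2 and Fxyd2), and no diet or interaction value of a member was called under any of them. Kidney diet calls numbered 11 with DESeq2 and 0 in every fit that left out 1 library. Liver diet calls numbered 1122 with DESeq2, 12 with HS5 and HS6 summed, and 12 to 765 with 1 library left out (765 without N3, 409 without N4, 39 without N1, 41 without N2, 18 without HS5, 12 without HS6 and 32 without HS8). In settings chosen after seeing the data, liver calls numbered 15 without HS7 and HS8, 52 without N1 and N2, and 19 with the balance of short and long genes as a covariate. Interaction calls numbered 148 with DESeq2, 2 with at least 10 counts in every library, 6 without HS7 and HS8 and 1 without liver N1 and N2 (both chosen after seeing the data), and 0 to 7 with 1 library left out.

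Values near 0 changed sign. In kidney, leaving out 1 library gave log2 changes of -0.092 to 0.066 for Atp1b1, -0.021 to 0.39 for Atp1b2, -0.086 to 0.050 for Atp1b3, -0.39 to 0.095 for Fxyd2 and -0.043 to 0.31 for Fxyd5. The within-library log2 ratios ran from -0.13 to 0.12 for Atp1b3 to Atp1b1, -0.44 to 0.14 for Fxyd2 to Atp1b1 and -0.035 to 0.59 for Fxyd5 to Fxyd2. In liver, leaving out 1 library gave changes of -0.029 to 0.11 for Atp1b3, -0.20 to 0.018 for Fxyd1 and -0.72 to 0.090 for Fxyd5. Without liver N1 and N2 the liver change was -0.043 for Atp1b3 and 0.14 for Fxyd1, and the tissue difference of Fxyd5 was -0.32. With the covariate the liver changes of Atp1b3 and Fxyd1 were -0.084 and 0.22. The tissue difference of Fxyd5 ran from -0.036 to 0.73 with 1 library left out. The interaction of Atp1b3 was -0.012 with RLE scaling, -0.012 with DESeq2 and -0.014 to 0.13 with 1 library left out. The cause was not tested. The replicate block in kidney gave 0 calls and changed no sign; same-numbered libraries correlated at 0.41, 0.37 and -0.090, and N3 correlated best with HS2 (0.39), so the numbers were not taken as pairs. In liver no paired analysis was possible because the high salt columns carry no titled number. Low counts limit Fxyd1 in kidney and Fxyd2 and Atp1b2 in liver.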
